A study of Mus musculus with 32 samples.

Results

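The urea cycle was read here through 8 genes chosen by name: the enzymes Cps1, Otc, Ass1, Asl and Arg1, the activator enzyme Nags, and the mitochondrial carriers Slc25a13 and Slc25a15. Each was represented by 1 probe set, the one of highest mean signal among those annotated to that gene alone, out of 18194 genes measured in this way. The data were 32 Affymetrix whole-genome arrays of CD-1 mouse liver, 2 per group. The 20 adult arrays were from 10-week-old females, either intact (time 0) or taken 1, 2 or 6 h, 12, 18, 24 or 30 h, or 48 or 72 h after removal of 2/3 of the liver with the gallbladder under ketamine and xylazine, with buprenorphine afterwards. The 12 embryonic arrays were of livers microdissected at 10.5, 11.5 or 12.5 days and at 13.5, 14.5 or 16.5 days after conception, from embryos of untreated CD-1 dams. Each array was made from the RNA of at least 3 tissues pooled, so the errors and p-values measure the spread between pools. No sham-operated group was among the samples used here, so the removal of liver cannot be told apart from anaesthesia, surgery and analgesia. For the embryonic samples the labels conflict (1 field gives 10.5 days for all 12 and another describes adult liver); the stages were taken from the titles, which match the source names.

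The urea cycle turns toxic ammonia into urea and is most active in hepatocytes, chiefly those around the portal vein. In the mitochondrion, carbamoyl phosphate synthetase (Cps1), which needs the N-acetylglutamate made by Nags, joins ammonia to bicarbonate, and ornithine transcarbamylase (Otc) passes the product to ornithine, giving citrulline. In the cytosol, argininosuccinate synthetase (Ass1) adds aspartate, argininosuccinate lyase (Asl) releases arginine, and arginase (Arg1) splits it into urea and ornithine; Slc25a15 carries ornithine back into the mitochondrion, and Slc25a13 (citrin) exports aspartate from it.

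In adult liver no gene of the cycle passed the test against time 0 in any of the 3 phases of regeneration. Within the operated livers Otc, Asl and Slc25a15 were lower at 12 to 30 h than at 1 to 6 h, by 1.39- to 1.55-fold. In that comparison 15.3% of all genes were called in either direction. Nags was lower at 12 h than at time 0, where 8.88% of all genes were called. The calls of Asl, Slc25a15 and Nags were each lost on leaving out some single arrays. In embryonic liver 7 of the 8 probe sets were called below time 0 for the mean of the stages, where 55.7% of all genes were called in either direction. They ran from 2.07-fold lower for Slc25a13 to 30-fold for Arg1. Otc, Cps1, Arg1, Asl and Nags rose between 10.5 and 16.5 days. The probe set of Ass1 was near the array median and is treated apart.

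The changes are log2 differences of group means, each signal with 16 added first, with their standard errors (SE), and were tested with limma. A change was called at a Benjamini-Hochberg adjusted p under 0.05 over all 18194 genes. All comparisons against time 0 share the same 2 arrays. Signals are the authors' linear values, are comparable only within a probe set, and had array medians of 69.75 to 79.48. Because these were pieces of whole tissue, fewer cells of a type and less RNA per cell cannot be told apart.

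The arrays were not of equal quality. On the second array of 48 h the Gapdh probe set near the 3′ end exceeded that near the 5′ end by 1.22 (log2), and on the first array of 10.5 days by 1.49, where the other 30 arrays lay between -0.44 and 0.32. A high ratio is a common sign of shortened RNA. The Actb ratio set apart the 48 h array (2.42, against at most 1.72 on the others) but not the 10.5 day array (0.90). All 8 genes of the cycle were lower on the second array of 48 h than on the first, by a median of 1.02 (log2), where the median over all genes was lower by 0.13 and that of 11 hepatocyte markers by 0.86. The 2 Arg1 signals at 48 h were 5138 and 670, those of Slc25a13 were 522 and 92, and those of Cps1 were 6802 and 2926. The part of RNA quality in this difference was not tested. For differences between groups, results are therefore given with and without those 2 arrays where the call of a gene changed. At time 0, which every comparison with time 0 uses, the second array was above the first by a median of 0.45 (log2) for the hepatocyte markers. For the 8 genes of the cycle that median was 0.16.

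**Figure D1:**
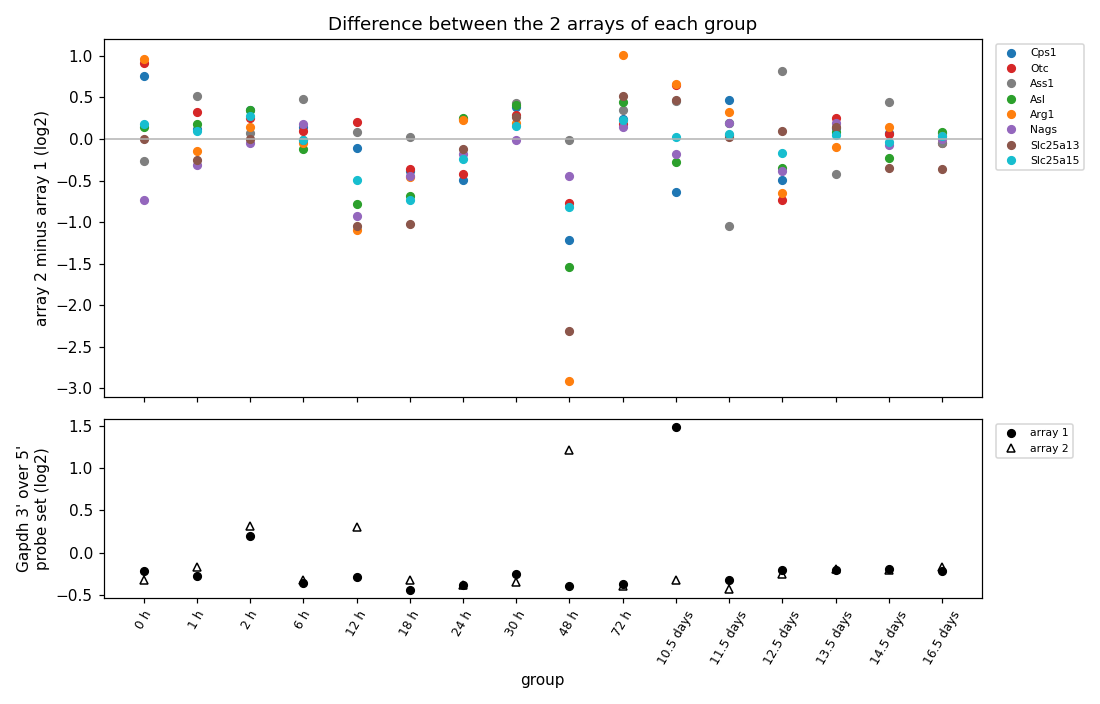
Differences between the 2 arrays of each group. Upper panel: array 2 minus array 1 (log2 of signal plus 16) for each gene of the cycle, by group. Lower panel: the log2 ratio of the 3′ to the 5′ Gapdh probe set on each array. All 8 genes lie below 0 at 48 h, down to -2.91 for Arg1, and the Gapdh ratio of that second array is 1.22.

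For Otc, Nags and Slc25a15, the genes whose level differed among the adult times in an F test, RefSeq promoter windows (GRCm38.p6) were at hand, and the 250 bases before the annotated start are printed because these members moved with time, with any match to the searched motifs in capitals. Slc25a15 has 2 annotated starts.
Otc, chrX:10252055-10252304, plus strand: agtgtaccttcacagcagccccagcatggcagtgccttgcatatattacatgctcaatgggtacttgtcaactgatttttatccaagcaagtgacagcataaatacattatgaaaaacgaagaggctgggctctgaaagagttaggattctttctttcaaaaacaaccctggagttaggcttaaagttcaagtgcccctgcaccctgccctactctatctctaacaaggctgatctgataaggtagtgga
Nags, chr11:102145263-102145512, plus strand: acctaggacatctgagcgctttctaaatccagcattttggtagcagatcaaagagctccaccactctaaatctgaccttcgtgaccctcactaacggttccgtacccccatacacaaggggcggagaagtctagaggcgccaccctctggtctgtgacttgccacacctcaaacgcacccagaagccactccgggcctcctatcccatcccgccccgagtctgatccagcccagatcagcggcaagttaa
Slc25a15, first window, chr8:22398278-22398527, minus strand: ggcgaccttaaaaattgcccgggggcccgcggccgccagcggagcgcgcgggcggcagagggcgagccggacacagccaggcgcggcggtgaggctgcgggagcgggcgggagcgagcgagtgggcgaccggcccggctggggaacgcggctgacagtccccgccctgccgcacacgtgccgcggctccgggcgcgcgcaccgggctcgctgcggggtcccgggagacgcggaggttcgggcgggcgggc
Slc25a15, second window, chr8:22398622-22398871, minus strand: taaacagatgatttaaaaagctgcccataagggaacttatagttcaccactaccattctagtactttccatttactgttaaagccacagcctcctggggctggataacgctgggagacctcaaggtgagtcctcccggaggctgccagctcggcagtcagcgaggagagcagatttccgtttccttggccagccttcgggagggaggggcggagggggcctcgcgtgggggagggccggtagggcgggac
The GC content was 43.6% for Otc, 55.6% for Nags and 80.4% and 57.6% for the Slc25a15 windows, against a median of 52.4% over 32851 promoter windows. On either strand, none of these 4 windows held TATAAA (in 12.4% of all windows), CCAAT (33.8%), the cyclic AMP response element TGACGTCA (1.55%), the C/EBP motif TTGCNNAA (9.56%), the HNF4 motif CAAAGTCCA (0.384%) or the glucocorticoid receptor motif TGTTCT (16.1%), so no base is in capitals. Of the other members, Ass1 held none of these motifs in its window and Slc25a13 held CCAAT at -22 to -18 from its start. The absence of a match says only that these letters are not in these bases.

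Otc, the mitochondrial enzyme that makes citrulline, had signals of 1305 and 2477 at time 0 and of 3315 and 4138 (1 h). Later signals were 2415 and 2884 (2 h), 2192 and 2358 (6 h), and 2010 and 2320 (12 h). They were 1746 and 1352 (18 h), 1816 and 1349 (24 h), 1875 and 2304 (30 h), 2519 and 1472 (48 h), and 2963 and 3350 (72 h). The arrays of 1 h were above both of time 0, and those of 18 h and 24 h lay within the range of time 0. Otc was 1.55-fold lower at 12 to 30 h than at 1 to 6 h (-0.63 ± 0.16 SE, 8 against 6 arrays, adjusted p = 0.00995). The 2 ranges overlapped, with 2192 to 4138 early and 1349 to 2320 later. At 1 h the difference from time 0 was 1.03 ± 0.30 and was not called (adjusted p = 0.195). A second Otc probe set read 1183 and 1570 at time 0, 2368 and 3075 (1 h) and 1146 and 786 (18 h), and another, dimmer one was below the array median on 7 adult and all 12 embryonic arrays.

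Cps1, the ammonia-fixing first enzyme, gave 3278 and 5559 at time 0 and 6999 and 7596 (1 h). Its signals were 5592 and 7137 (2 h), 4491 and 4959 (6 h), 5209 and 4838 (12 h), and 3231 and 2478 (18 h). They were 5456 and 3874 (24 h), 4996 and 6505 (30 h), 6802 and 2926 (48 h), and 6096 and 7208 (72 h). The 18 h arrays were the only adult pair to lie wholly below time 0. Neither 1 h (0.77 ± 0.33, adjusted p = 0.508) nor 18 h (-0.59 ± 0.33, adjusted p = 0.366) was called against time 0. The difference of 12 to 30 h from 1 to 6 h was -0.45 ± 0.18 and missed the threshold (adjusted p = 0.0994), but it was called without the 2 arrays of high Gapdh ratio (adjusted p = 0.0223). In the order of adult means, from 7297 at 1 h to 2854 at 18 h, 8 of the 9 neighbouring pairs of times overlapped.

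Asl, which releases arginine from argininosuccinate, read 1027 and 1132 at time 0. It read 2029 and 2294 (1 h), 1378 and 1766 (2 h), and 1984 and 1827 (6 h), so that all 6 early arrays were above both of time 0. Between 12 and 30 h the lowest signal was 910, the median 1060 and the highest 1768. The 1 to 6 h difference from time 0, 0.78 ± 0.28, was not called (adjusted p = 0.356). The later fall from 1 to 6 h was called (-0.64 ± 0.19, 1.55-fold, adjusted p = 0.0226), but this call was lost on leaving out any of 6 single arrays (the second of 1, 2, 12 and 18 h and the first of 6 and 30 h), with adjusted p of 0.0551 to 0.0768.

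Arg1, the arginase of the cytosol, read 1648 and 3220 at time 0 and 4768 and 4289 (1 h). Its highest mean, 5303, was at 18 h, from 6149 and 4457, and the arrays of 12 h read 5524 and 2574. No phase was called against time 0: 1 to 6 h differed by 0.73 ± 0.47, 12 to 30 h by 0.82 ± 0.45 and 48 to 72 h by 0.05 ± 0.49. All 9 neighbouring pairs of times in the order of its means overlapped. At 18 h the difference was 1.18 ± 0.57, not called with all arrays (adjusted p = 0.265) but called without the 2 arrays of high Gapdh ratio (SE 0.34 there, adjusted p = 0.0319).

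Nags, whose product switches on Cps1, had another course. It read 464 and 274 at time 0, 339 and 271 (1 h), 252 and 242 (2 h), 182 and 208 (6 h), and 258 and 128 (12 h). It then read 335 and 242 (18 h), 473 and 416 (24 h), 449 and 445 (30 h), 443 and 322 (48 h), and 385 and 427 (72 h). All 6 arrays of 2 to 12 h lay below both of time 0. At 12 h Nags was 1.88-fold lower than at time 0 (-0.91 ± 0.25, adjusted p = 0.0255), the only one of 72 pairs of gene and single time to be called. That call rested on single arrays: it was lost without the first array of time 0 (-0.55, adjusted p = 0.344) and without the second array of 12 h (-0.44, adjusted p = 0.455). It was lost too with array weights (adjusted p = 0.0587) and with only those 2 groups in the fit (adjusted p = 0.484). The Gapdh ratio of that 12 h array was 0.30, and its part was not tested. Between 12 to 30 h and 1 to 6 h the Nags difference was 0.37 ± 0.14 and not called (adjusted p = 0.077).

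Of the carriers, Slc25a15, which brings ornithine into the mitochondrion, read 1119 and 1274 at time 0 and 2230 and 2393 (1 h). It read 1680 and 2039 (2 h), 1590 and 1575 (6 h), and 1098 and 777 (12 h). Its signals were 1733 and 1035 (18 h), 1839 and 1550 (24 h), 1545 and 1729 (30 h), 1516 and 849 (48 h), and 1574 and 1845 (72 h). All 6 early arrays were above time 0, and both 12 h arrays were below it. Slc25a15 fell from 1 to 6 h to 12 to 30 h by 0.47 ± 0.13 on the log2 scale (1.39-fold, adjusted p = 0.0142). Without the second array of 2 h the adjusted p was 0.0555. Its difference from time 0 was 0.66 ± 0.19 at 1 to 6 h (adjusted p = 0.168) and 0.94 ± 0.24 at 1 h (adjusted p = 0.101), and both were called without the 2 arrays of high Gapdh ratio (adjusted p = 0.0469 and 0.0213). The dimmer second probe set of Slc25a15 differed at 2 h, with 210 and 161 against 443 and 324 at time 0. With the probe sets of a gene averaged the fall to 12 to 30 h was -0.24 and not called (adjusted p = 0.483).

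Slc25a13, the aspartate and glutamate carrier citrin, read 499 on both arrays of time 0, 652 and 545 (1 h), 376 on both arrays of 2 h, and 600 and 597 (6 h). It read 333 and 152 (12 h) and 437 and 208 (18 h), then 594 and 547 (24 h), 506 and 610 (30 h), 522 and 92 (48 h), and 484 and 701 (72 h). Both arrays of 2, 12 and 18 h were below time 0. The 12 h difference of -1.09 ± 0.46 was not called (adjusted p = 0.171), and was called without the 2 arrays of high Gapdh ratio (adjusted p = 0.0172). At 48 h the difference was -1.10 ± 0.46 and rested on the second array, without which (and the 10.5 day array) it was 0.06 ± 0.36.

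**Figure D2:**
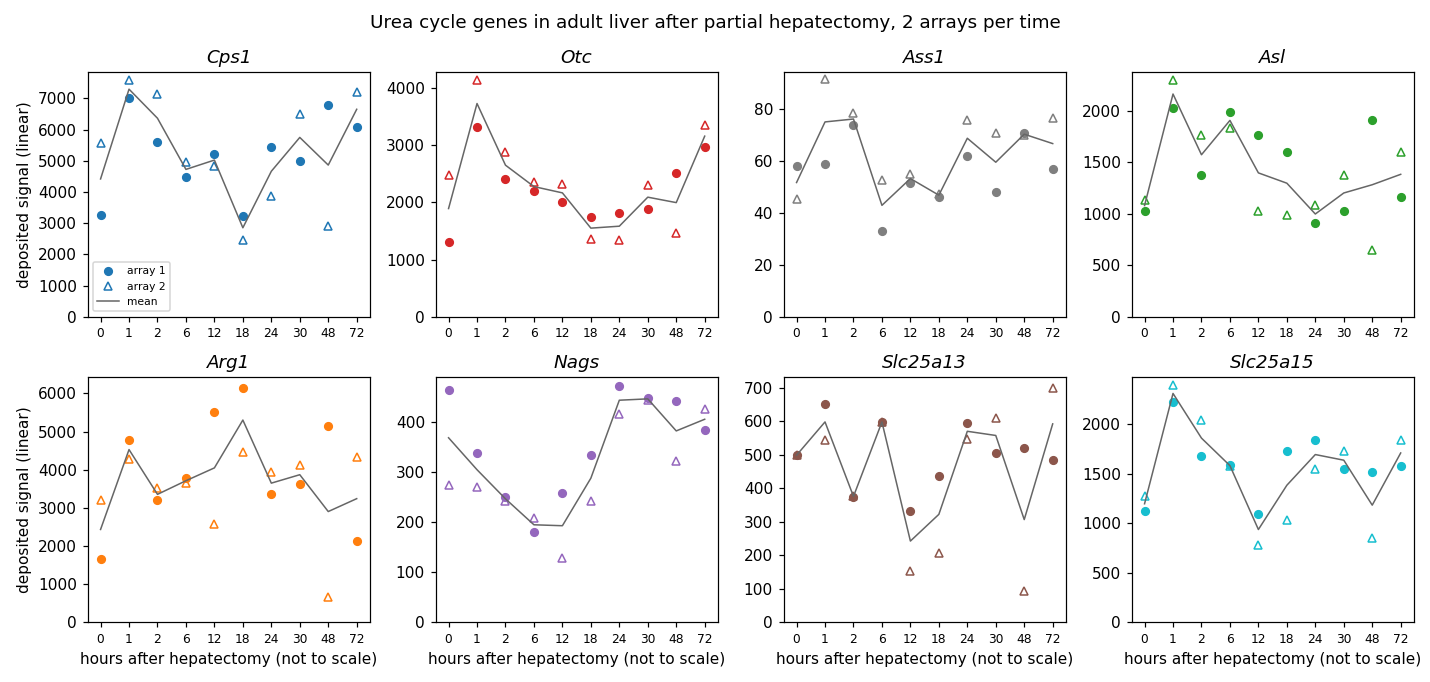
Linear signal of the 8 genes on the 20 adult arrays, against hours after hepatectomy (times evenly spaced, not to scale; filled circles array 1, open triangles array 2, line the mean of both). Otc, Asl, Cps1, Slc25a13 and Slc25a15 have their highest mean at 1 h, and Nags its lowest at 12 h (193.1). The Ass1 panel shows a probe set whose adult signals run from 33 to 92.

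Ass1, which joins citrulline and aspartate, could not be followed well by the rule. Its single-gene probe set read 58 and 45 at time 0 and was below the array median on 16 of the 20 adult arrays. Another probe set, above the array median on all 32 arrays, is annotated to Gm5424 and Ass1 together, so its signal cannot be assigned to Ass1 alone. It read 2496 and 5657 at time 0, 7135 and 7428 (1 h), 4127 and 3373 (18 h), 6490 and 1144 (48 h), and 5611 and 7173 (72 h). None of its adult comparisons was called. Its 12 to 30 h arrays differed from those of 1 to 6 h by -0.45 ± 0.27 (adjusted p = 0.324).

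Counted together, 0 of the 8 genes were called at 1 to 6 h against time 0, where 0.978% of all genes were, and 4 had an unadjusted p under 0.05. At 12 to 30 h 0 were called (4.79% of genes) and at 48 to 72 h 0 (2.65%), and in both phases 0 had an unadjusted p under 0.05. Between 12 to 30 h and 1 to 6 h 3 of 8 were lowered and 0 raised, against 15.3% of all genes called in either direction. The median change of the 8 was -0.42, where that of all genes was 0. Between 48 to 72 h and 12 to 30 h 0 of 8 were called (5.67% of genes); 2 had an unadjusted p under 0.05, and without the 2 arrays of high Gapdh ratio Cps1 (0.61 ± 0.18, adjusted p = 0.0433) and Otc (0.63 ± 0.18, adjusted p = 0.0438) were raised. At single times 0 genes of the cycle were called at 1 h (0.484% of genes), 2 h (0.572%), 6 h (2.12%), 18 h (7.73%), 24 h (1.25%), 30 h (0.352%), 48 h (1.5%) and 72 h (3.14%), and 1 at 12 h (8.88%). Without the 2 arrays of high Gapdh ratio more pairs of gene and time were called, but more of all genes were called at every time too. The number with an unadjusted p under 0.05 was 4 at 1 h, 2 at 6 h, 2 at 72 h, 1 each at 2, 24 and 48 h, and 0 at 18 and 30 h. The share of all genes with an unadjusted p under 0.05 was not counted, so these numbers are a description only. The F test over the 9 operated times and time 0 called Otc (adjusted p = 0.037), Nags (0.00392) and Slc25a15 (0.00908), where it called 18.2% of all genes. Fitted on the adult arrays alone it called 0 of the 8. Without the 2 arrays it called more of the 8, and the share of all genes was not counted there.

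**Figure D3:**
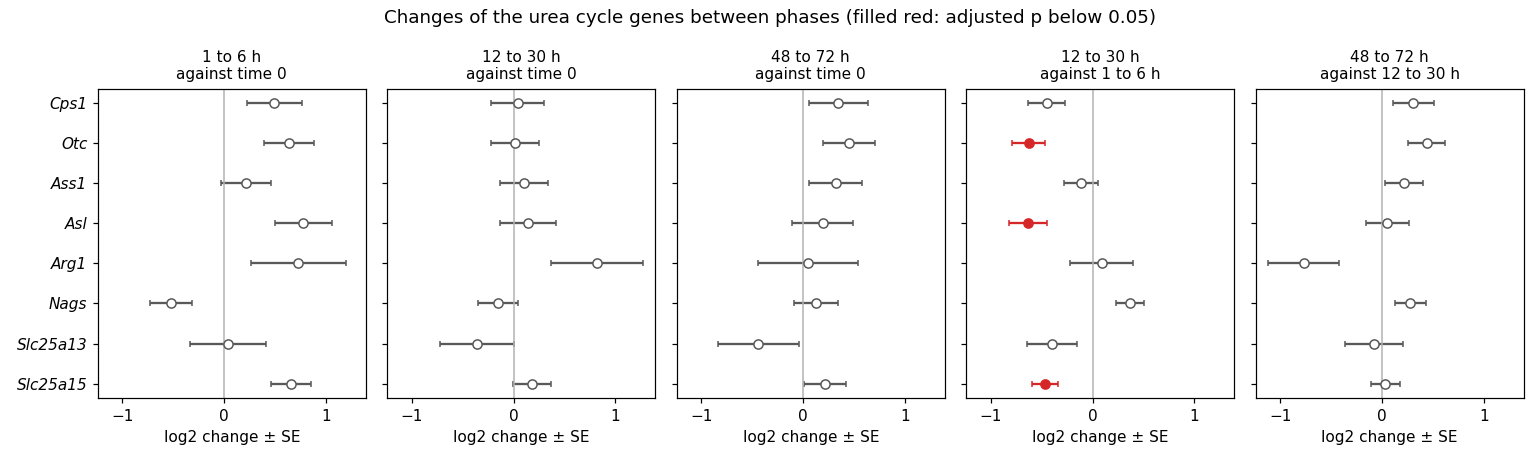
Log2 change of each gene with its SE in 5 comparisons between phases of regeneration and time 0. Filled red points have an adjusted p under 0.05. These are Otc (-0.63), Asl (-0.64) and Slc25a15 (-0.47) at 12 to 30 h against 1 to 6 h; no point is filled in the other panels.

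None of the 11 hepatocyte markers measured, of 12 listed, was called in any phase against time 0, with median changes of 0.25, 0.26 and 0.21. Their summed signal was 60672 and 74604 at time 0 and 53578 to 95963 on the 18 operated arrays. Of the 7 neutrophil markers 2 were raised in each phase, and all 5 markers of cycling cells were raised at 48 to 72 h. Of all genes 0.978%, 4.79% and 2.65% were called in the 3 phases. Between 12 to 30 h and 1 to 6 h the hepatocyte markers had a median change of 0.01 and 0 of 11 were called (15.3% of all genes).

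In embryonic liver the genes of the cycle were far below adult time 0. All 8 were called for the mean of the 6 stages, 7 lowered and the dim Ass1 probe set raised, where 55.7% of all genes were called. The 7 lowered genes lay below time 0 on every embryonic array, and 6 of them, all but Slc25a13, below every adult array. The share of all genes that lay so was not counted.

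Arg1 was the farthest below time 0. Its signals were 35 and 65 at 10.5 days, 22 and 31 at 11.5 days, 46 and 23 at 12.5 days, 59 and 54 at 13.5 days, 118 and 132 at 14.5 days, and 137 and 141 at 16.5 days. Of these 12 arrays 8 were below the array median, so its embryonic folds depend on the constant added. The mean difference was -4.91 ± 0.44 (30-fold lower, adjusted p = 3.51e-09), and it was -5.19 with a constant of 4 and -4.20 with one of 64. At 16.5 days Arg1 was at 5.71% of time 0. Its rise over the stages was 0.30 ± 0.08 per day (adjusted p = 0.00881). That call was lost with a constant of 64 (0.19, adjusted p = 0.0752) and without the first array of 10.5 days (0.26, adjusted p = 0.0517).

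Cps1 read 173 and 104.9 at 10.5 days, 107 and 155 at 11.5 days, 251 and 175 at 12.5 days, and 244 and 267 at 13.5 days. It read 577 and 608 at 14.5 days and 622 and 652 at 16.5 days, above every earlier array. Its mean was 15.1-fold below time 0 (-3.91 ± 0.25, adjusted p = 2.27e-11), and it rose by 0.42 ± 0.05 per day (adjusted p = 8.02e-07). The step from 13.5 to 14.5 days was 1.17 ± 0.33 (2.24-fold) and was not called (unadjusted p = 0.00207, adjusted p = 0.6), at a step where 0.0495% of all genes were called. At 16.5 days Cps1 was at 14.4% of time 0.

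Otc read 18 and 37 at 10.5 days, 116 and 121 at 11.5 days, 337 and 196 at 12.5 days, 376 and 449 at 13.5 days, 478 and 500 at 14.5 days, and 556 and 537 at 16.5 days. Each stage lay above the one before it on both arrays. This was the largest span among the 8 genes, 19.8-fold between the lowest and highest stage mean of the deposited signals. At 10.5 days both arrays read below their array median. This fold therefore rests on dim signals, and the log2 change of the first step depends on the constant added. Otc rose by 0.59 ± 0.04 per day (adjusted p = 1.17e-09). From 10.5 to 11.5 days it rose 3.16-fold (1.66 ± 0.30, adjusted p = 0.00099), the only one of 40 pairs of gene and step to be called. Fitted on those 2 stages alone the step was not called (adjusted p = 0.141), and with other constants, scaling, probe sets or arrays it ranged from 1.00 to 2.02. Without the 2 arrays of high Gapdh ratio the first step was 1.34 ± 0.32. In that fit the Otc step from 11.5 to 12.5 days (1.03 ± 0.26) was called too. The 10.5 day level of Otc was 1.46% of time 0 and its 16.5 day level 28.9%. A second Otc probe set gave 23 and 36 at 10.5 days and 120 and 110 at 11.5 days.

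Asl, Nags and Slc25a15 were nearer to adult levels. Asl read 194 and 157 at 10.5 days and 369 and 391 at 16.5 days, from 16.2% to 35.2% of time 0, with a mean 3.94-fold lower (-1.98 ± 0.26, adjusted p = 1.41e-06). Nags read 52 and 44 at 10.5 days and 111 on both arrays at 16.5 days, from 13% to 30% of time 0, with a mean 3.95-fold lower (-1.98 ± 0.19, adjusted p = 1.37e-08). Their rises per day were 0.19 ± 0.05 for Asl (adjusted p = 0.00663) and 0.19 ± 0.04 for Nags (adjusted p = 0.000502). Without the 10.5 day stage the Asl rise, 0.18, was not called (adjusted p = 0.0622). Slc25a15 read 218 and 223 at 10.5 days, 295 and 307 at 11.5 days, and 330 and 339 at 16.5 days. It was 3.71-fold below time 0 (-1.89 ± 0.18, adjusted p = 1.09e-08), and its slope of 0.09 ± 0.03 per day was not called (adjusted p = 0.0654).

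Slc25a13 stayed at 43% to 52.2% of time 0 at all 6 stages, from a lowest signal of 178 to a highest of 286. Its mean was 2.07-fold below time 0 (-1.05 ± 0.35, adjusted p = 0.0154), a call lost on leaving out either array of time 0 (adjusted p of 0.0922 and 0.0916), and its slope was 0.03 ± 0.07 per day (adjusted p = 0.808). Among single stages it was called at 10.5 days (adjusted p = 0.0413, and 0.0555 to 0.204 on leaving out any of the 4 arrays compared), and at the other 5 the adjusted p was above the threshold. Without the 2 arrays of high Gapdh ratio the mean difference was -1.01 ± 0.225. In that fit Slc25a13 was called at those other 5 stages too, with differences of -0.90 to -1.11 (SE 0.29). All 5 neighbouring pairs in the order of its stages overlapped.

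For Ass1 the 2 probe sets went opposite ways. The single-gene probe set read 67 to 161 on the embryonic arrays, below the array median on 4 of 12, and was 1.6-fold above time 0 (0.68 ± 0.23, adjusted p = 0.0161), a call lost (0.55, adjusted p = 0.177) when the second of the time 0 arrays was left out and with only the groups compared in the fit (adjusted p = 0.0562). The probe set shared with Gm5424 read 176 and 233 at 10.5 days, 413 and 360 at 11.5 days, 603 and 456 at 12.5 days, 731 and 669 at 13.5 days, 1038 and 1006 at 14.5 days, and 873 on both arrays of 16.5 days. It was 6.73-fold below time 0 (-2.75 ± 0.38, adjusted p = 2.54e-06) and rose by 0.34 ± 0.07 per day (adjusted p = 0.00107), from 5.01% to 21.4% of time 0.

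**Figure D4:**
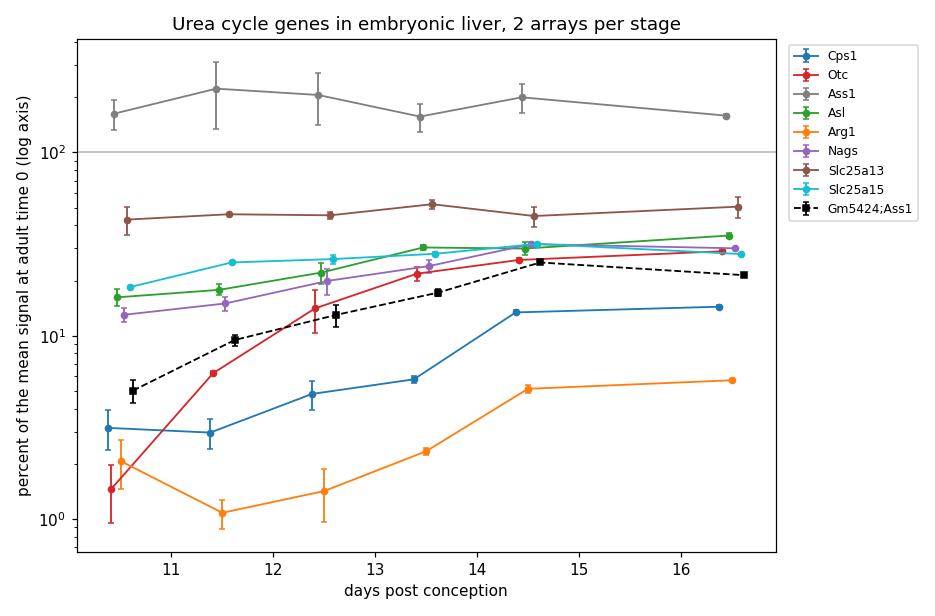
Signal at each embryonic stage as a percentage of the adult time 0 mean (log axis, days post conception; points are means of 2 arrays, bars run from the lower to the higher array, points offset sideways for legibility). Arg1 lies lowest from 11.5 days on (5.71% at 16.5 days), Otc climbs from 1.46% to 28.9%, Slc25a13 is flat near 50%, and the dashed line is the probe set shared by Gm5424 and Ass1.

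By stage, 7 genes of the cycle were called against time 0 at 10.5 days (47.1% of all genes), 7 at 11.5 days (48.3%), 7 at 12.5 days (47.8%), 6 at 13.5 days (47.5%), 7 at 14.5 days (46.5%) and 6 at 16.5 days (42.6%). Their median change was -2.53 at 10.5 days and -1.62 at 16.5 days, where the medians of all genes were 0.01 and 0.06. The trend over the stages raised 5 of 8 and lowered 0, against 27.9% of all genes called. Between neighbouring stages 1 of 8 was called from 10.5 to 11.5 days (7.76% of genes) and 0 at the later steps, 11.5 to 12.5 days (3.14%), 12.5 to 13.5 days (0.132%), 13.5 to 14.5 days and 14.5 to 16.5 days (0.0879%). At the first 3 of these 4 later steps 1 gene of the cycle had an unadjusted p under 0.05, and at the last 0 did. The share of all genes under that threshold was not counted. The F test over the 6 stages called Cps1, Otc and Nags, and 21.2% of all genes. Differences between the slopes of the members were not tested.

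The signals of cell type markers moved with these values. All genes were called at 55.7% in the embryonic mean, 27.9% in the trend and 7.76% at the step from 10.5 to 11.5 days. The summed signal of the 11 hepatocyte markers was 9706 to 48964 on the embryonic arrays, below the 60672 to 74604 of time 0, with 8 of 11 lowered and a median change of -1.47. The trend raised all 11 by a median of 0.37 per day. The step from 10.5 to 11.5 days, where Otc was called, raised 7 of them, with a median change of 1.4. The 8 erythroid markers were all raised in the embryonic mean, by a median of 4.3, with summed signals of 2066 to 22440 against 508 to 571 at time 0, and all 8 rose over the stages. All 5 markers of cycling cells were raised as well. The 8 markers of gut, pancreas and heart summed to 9353 and 5513 at 10.5 days and 1158 and 3327 at 12.5 days, against 568 and 579 at 11.5 days, 569 to 792 at the later stages and 1180 to 1366 at time 0. Without the 10.5 day stage the slopes were 0.46 ± 0.061 (SE) log2 units per day for Cps1, 0.39 ± 0.055 for Otc, 0.42 ± 0.105 for Arg1 and 0.17 ± 0.046 for Nags, all called. The part of these cell types in the embryonic levels of the urea cycle genes was not tested.

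Genes that supply nitrogen to the cycle or use its products were read from lists. Of all genes 0.978% were called at 1 to 6 h, 4.79% at 12 to 30 h and 2.65% at 48 to 72 h. Of 20 genes measured for ammonia, glutamine and glutamate handling, 3 were raised and 0 lowered at 1 to 6 h: Slc38a2, an amino acid importer (1.85 ± 0.20, 3.61-fold, adjusted p = 9.76e-06), Got1, the cytosolic aspartate aminotransferase (1.62 ± 0.22, 3.08-fold, adjusted p = 0.000172), and Slc7a2, a transporter of arginine and other basic amino acids (0.85 ± 0.20, adjusted p = 0.0407). At 12 to 30 h Car5a, the mitochondrial carbonic anhydrase that supplies bicarbonate to Cps1, was lowered by 1.36 ± 0.19 (adjusted p = 0.000205) and Asns, asparagine synthetase, was raised (0.49 ± 0.13, adjusted p = 0.0364). Between 12 to 30 h and 1 to 6 h 8 of the 20 were lowered and 1 raised, with a median change of -0.42, where 15.3% of all genes were called. In embryonic liver, where 55.7% of all genes were called, 14 of the 20 were lowered and 3 raised, among them Gpt, alanine aminotransferase (-3.48 ± 0.24), Car5a (-3.35 ± 0.19), Slc7a2 (-2.57 ± 0.19) and, raised, Asns (3.73 ± 0.13). Over the stages 9 rose and 2 fell (27.9% of all genes were called), with Slc7a2 rising by 0.39 ± 0.04 and Aqp9, a channel for glycerol and urea, by 0.23 ± 0.05 per day.

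Of 15 measured genes of arginine, ornithine and polyamine use, Oat, ornithine aminotransferase, was raised at 1 to 6 h (0.71 ± 0.16, 1.64-fold, adjusted p = 0.026). At 12 to 30 h Sat1, which acetylates polyamines for breakdown or export, was raised (0.93 ± 0.21, adjusted p = 0.00963) and Azin1, the antizyme inhibitor, lowered (-0.60 ± 0.14, adjusted p = 0.0136). At 48 to 72 h Odc1, ornithine decarboxylase, was lowered (-0.72 ± 0.17, adjusted p = 0.0203). In the embryonic mean (55.7% of all genes called) 6 were raised, led by Smox, spermine oxidase (2.19 ± 0.16), and Odc1 (1.99 ± 0.15, 3.98-fold), and 5 were lowered, among them Agmat (-2.43 ± 0.22). Ornithine is a substrate of Odc1 and also of Otc, whose embryonic mean was -2.92 ± 0.23 (7.58-fold lower). The use of ornithine was not measured.

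Of 13 measured hormone and transcription regulators, Cebpb (1.28 ± 0.26, 2.43-fold, adjusted p = 0.0116) and Ppargc1a (0.58 ± 0.12, adjusted p = 0.0149) were raised at 1 to 6 h. At 12 to 30 h Klf15 (-1.34 ± 0.29, adjusted p = 0.00958) and Nr3c1, the glucocorticoid receptor (-0.66 ± 0.16, adjusted p = 0.0205), were lowered, and 5 of the 13 were lowered against 1 to 6 h (15.3% of all genes called). In the embryonic mean 9 were lowered and 1 raised (55.7% of all genes called), with Gcgr, the glucagon receptor, at -2.67 ± 0.24, Klf15 at -2.54 ± 0.28 and Nr1h4, the bile acid receptor, at -2.04 ± 0.18. The trend raised 5 of 13, near the 27.9% of all genes called in either direction, among them Nr3c1 (0.17 ± 0.03 per day), Cebpa (0.22 ± 0.05) and Hnf4a (0.19 ± 0.05).

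Among themselves, the genes followed one another unevenly over the 10 adult group means, which share arrays and normalization. Pearson's r was 0.87 between Cps1 and Otc, 0.76 between Otc and Asl, and 0.74 between the carriers Slc25a13 and Slc25a15. It was -0.58 between Nags and Asl, -0.05 between Cps1 and Arg1 and 0.08 between Cps1 and Nags. Over the 6 embryonic group means r was 0.96 between Cps1 and Nags, 0.94 between Cps1 and Arg1 and 0.95 between Otc and Slc25a15, but 0.60 between Otc and Arg1.

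The non-member genes with the most similar course over the 10 adult means, among 3506 genes that spanned at least 1 on the log2 scale, were Ugt2b34 (r = 0.971) and Obox3 (0.954) for Cps1, Gsta3 (0.935) and Aco1 (0.931) for Otc, Ppp1r3c (0.935) and St6gal1 (0.925) for Nags, Agt (0.939) and Rps14 (0.935) for Arg1, and Apom (0.969) and Pttg1ip (0.963) for Slc25a15. They were 1700001O22Rik (0.949) and Pim3 (0.926) for Asl, and Sp5 (0.968) and Dnlz (0.966) for Slc25a13. Over the 6 embryonic means, among 2865 such genes, they were Cd5l and Ahsg for Otc (both 0.999), Nrn1 (0.999) and Slc38a3 (0.993) for Cps1, Hpd (0.983) and Sult1a1 (0.98) for Arg1, Gpld1 and Leap2 for Nags (both 0.999), Col14a1 (0.996) and Gli2 (0.995) for Asl, and Abhd1 (0.997) and Usf3 (0.993) for Slc25a15. Ahsg, fetuin, is a plasma protein made by the fetal and adult liver, and Slc38a3 is a glutamine transporter of hepatocytes. Cd5l, as close to Otc as Ahsg was, had been listed as a marker of macrophages and Kupffer cells. The cell types of the other genes named were not examined. All the genes named here were picked as the highest among all candidates over few points, so the values are a description only. The Ass1 probe set spanned 0.67 in adults and 0.35 in embryos, and its closest genes reached 0.829 (Stx6) and 0.881 (Rimkla). Slc25a13 spanned 0.28 over the stages, and its closest gene there was Tmem14c (0.941).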

How the data were processed

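Per the labels' protocols, biotinylated cRNA was made from 6 µg of total RNA and hybridised to Affymetrix arrays. The deposited values are linear intensities, some below 0; how the authors normalized them is not given in the sources used here. Values below 0 were set to 0, 16 was added and log2 taken. Probe sets with several symbols were left out, and each of 18194 genes kept its brightest probe set, 45101 being on the array. limma 3.58.1 in R 4.3.3 fitted 1 mean per group on all 32 arrays (eBayes with trend, 16 residual degrees of freedom), with contrasts between groups, phases and stages. The script was tested on simulated data. The alternatives tried were other constants, scaling, filters, probe set rules, weights and fits, and leaving out arrays. The text names all 8 members, up to 4 called list genes per comparison with the smallest p, and for each member the 2 genes most alike. The members and lists were chosen with earlier results of these data known. Arrays of the same number did not deviate together in general (correlations between groups -0.357 to 0.555, median -0.00596), so numbers were not taken as pairs. The correlation was above 0.1 in 17 of 120 pairs of groups.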

Additional observations from a re-analysis of the deposited data

Results flagged for a closer look

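Otc, Asl and Slc25a15 differed between phases of regeneration by the test of the difference itself. At 12 to 30 h against 1 to 6 h the changes were -0.629 for Otc, -0.636 for Asl and -0.471 for Slc25a15. The probe set annotated to both Gm5424 and Ass1, which no count of members uses, was -2.75 in the embryonic mean against time 0, opposite in sign to the single-gene Ass1 probe set. The test for single outlying samples was not applied to groups of 2 arrays; the second array of 48 h is described in the report.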

How the results depend on the processing

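The counts for the embryonic mean, the single stages, the embryonic trend and 12 to 30 h against time 0 stayed within 1.5 times in every alternative run. The replicate block changed no count by over 1.5 times (3 of 8 at 12 to 30 h against 1 to 6 h, 41 stage pairs against 40 without it). With quantile normalization the counts were 5 at 12 to 30 h against 1 to 6 h, 2 at 48 to 72 h against 12 to 30 h, 4 time pairs, 3 step pairs, and 6 in each F test. With array weights they were 5, 2 time pairs, 3 step pairs, 6 (times) and 5 (stages). With only the groups compared in the fit they were 0 time pairs, 0 step pairs, 0 (times) and 6 (stages). Leaving out both arrays of high Gapdh ratio was an alternative chosen after seeing the data, with 1 array left at 48 h and at 10.5 days. More members were called at 1 to 6 h, at 48 to 72 h against 12 to 30 h, among time and step pairs, and in both F tests. In these adult comparisons between times and phases more of all genes were called too. Among the steps, fewer of all genes were called from 10.5 to 11.5 days and more from 11.5 to 12.5 days. For the F tests and the other alternatives the share of all genes called was not counted.

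On leaving out 1 array, the counts ran from 1 (without the second of 2 h) to 3 at 12 to 30 h against 1 to 6 h, 0 to 1 at 48 to 72 h, 0 to 2 at 48 to 72 h against 12 to 30 h, 0 to 6 time pairs (0 without the first array of time 0, 3 without the second; 6 without the first of 48 h, 4 without the second; 2 without the first of 12 h or either of 18 h), 1 to 2 step pairs (2 without the second of 12.5 days), and 2 to 7 in the F test over times (7 without the first of 48 h, 6 without the second).

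Signs that turned were all of uncalled values, except those of Ass1. With quantile normalization Cps1 was -0.005, -0.492 and -0.096 in the 3 phases, Otc -0.423, Asl -0.139 and Slc25a15 -0.159 at 12 to 30 h, and Asl -0.034 and Arg1 -0.375 at 48 to 72 h. With probe sets averaged Slc25a15 was -0.029 at 48 to 72 h and -0.141 against 12 to 30 h. Without both arrays Slc25a13 was 0.140 and 0.501 there. The shared Ass1 probe set, an alternative chosen after seeing the data, gave -0.066 at 48 to 72 h against 12 to 30 h, -2.75 for the embryonic mean, 0.342 per day, and -3.234, -2.805 and -1.863 at 11.5, 12.5 and 14.5 days. Leaving out 1 array gave ranges across 0 at 12 to 30 h for Cps1 (-0.339 to 0.421), Otc (-0.447 to 0.469), Ass1 (-0.033 to 0.238) and Nags (-0.517 to 0.212). At 48 to 72 h they were -0.031 to 0.728 for Cps1, -0.008 to 0.908 for Otc, -0.193 to 0.577 for Asl, -0.678 to 0.777 for Arg1, -0.237 to 0.492 for Nags and -1.018 to 0.140 for Slc25a13. Against 12 to 30 h they were -0.333 to 0.437 for Asl, -0.657 to 0.501 for Slc25a13 and -0.173 to 0.239 for Slc25a15. The others were Arg1 at 12 to 30 h against 1 to 6 h (-0.046 to 0.228), Nags at 1 h (-0.589 to 0.140), Slc25a13 at 1 to 6 h (-0.006 to 0.079) and the Ass1 slope (-0.056 to 0.019). Changes at 1 h against time 0 were smaller in some alternatives. They fell as low as 0.097 for Cps1 (0.77 in the main fit), 0.425 for Otc (1.035) and 0.446 for Asl (0.99). For Arg1 the lowest was 0.252 (0.968) and for Slc25a15 0.358 (0.942). The causes were not tested. With 2 arrays a group, precision is limited by their number.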
